A study of Mus musculus with 32 samples.

Results

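Genes of the nervous system of the gut wall were followed in colon and tumors of wild-type (WT) and *Dnase1l3*-knockout (KO) mice. *Ret*, *Elavl4*, *Chrna3*, *Nos1*, *Vip* and *Uchl1* mark enteric neurons and their precursors, and *S100b* and *Sox10* mark enteric glia. The genes were chosen by symbol, and all 8 of 8 were found among the 55291 genes of the count table.

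The enteric nervous system is formed by neural crest cells that migrate into the gut and settle as ganglia between the muscle layers and in the submucosa. The growth factor GDNF, made by gut mesenchyme, binds the co-receptor GFRA1 and the receptor tyrosine kinase RET, and loss of this pathway leaves the distal gut without ganglia. Mature ganglia hold neurons that drive or relax the muscle, of which the inhibitory motor neurons release nitric oxide and vasoactive intestinal peptide, and glia that surround them. SOX10 acts in the crest cells and stays on in glia, S100B is a calcium-binding protein of glia, and UCHL1 (PGP9.5) is a neuronal ubiquitin hydrolase that neuroendocrine cells also make.

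All 32 libraries were bulk RNA-Seq of total RNA, 1 per sample, in 8 groups. Mice of the C57BL/6 strain, WT (*Dnase1l3* +/+) or KO (*Dnase1l3* -/-), gave whole colon untreated (D0, 4 and 4 mice, age not given in the sources used here), after 1 cycle of azoxymethane and dextran sulfate sodium with 5 days of recovery (AOM/DSS, D19, 4 and 4 mice), and after 3 cycles (D80, 4 and 4 mice). Isolated tumor tissue was taken after 3 cycles from 5 WT and 3 KO mice. AOM, a colon carcinogen, was injected at 8 mg/kg in mice 3 months old, and DSS, which injures the colon epithelium, was given at 2.5% in drinking water for 7 days per cycle. The *Dnase1l3* deletion is constitutive and in all cells of the body, so a change in any cell type can enter a genotype comparison. The tumor samples are isolated tumors and the D80 samples whole colon. The wall layers in them can differ by dissection and by disease, and the design cannot tell these apart. In bulk RNA, fewer cells of a type and less RNA per cell cannot be told apart.

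The places of the members in the genome are given from GENCODE on GRCm38. *Ret* lies on the minus strand of chromosome 6 (118151745 to 118197718), *Elavl4* on the minus strand of chromosome 4 (110203722 to 110351909), and *Chrna3* on the minus strand of chromosome 9 (55010111 to 55026562). *Nos1* lies on the plus strand of chromosome 5 (117781032 to 117958840), *Vip* on the plus strand of chromosome 10 (5639218 to 5647617), and *Uchl1* on the plus strand of chromosome 5 (66676091 to 66687234). *S100b* lies on the plus strand of chromosome 10 (76253853 to 76261159) and *Sox10* on the minus strand of chromosome 15 (79154908 to 79165240). *Uchl1* overlaps *Uchl1os* and *S100b* overlaps *Dip2a*, each on the opposite strand, and *Nos1* overlaps *Gm37028* and *Gm26995*. The strand setting of the counting was not given in the sources used here, so reads of these pairs cannot be told apart.

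The RefSeq promoter table (GRCm38.p6) held 6 of the 8 members, and *Ret* and *Sox10* were not among them. The 250 bases before the start site are shown for *Vip* and *S100b*, which moved in opposite directions at D19, and for *Nos1*, the partner of *Vip* in inhibitory motor neurons. Capitals mark the core of the cAMP response element, TGACG or its reverse complement CGTCA.
Vip (plus strand, chr10:5638968-5639217): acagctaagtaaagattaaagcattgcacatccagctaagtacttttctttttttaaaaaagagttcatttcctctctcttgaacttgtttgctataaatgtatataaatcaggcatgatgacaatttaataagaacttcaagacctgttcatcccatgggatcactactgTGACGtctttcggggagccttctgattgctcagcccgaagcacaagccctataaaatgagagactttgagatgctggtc
Nos1 (plus strand, chr5:117866589-117866838): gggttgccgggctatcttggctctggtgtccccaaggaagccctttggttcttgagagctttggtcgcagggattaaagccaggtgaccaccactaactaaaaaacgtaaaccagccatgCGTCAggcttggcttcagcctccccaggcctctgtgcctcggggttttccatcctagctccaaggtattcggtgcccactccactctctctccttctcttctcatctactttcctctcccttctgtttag
S100b (plus strand, chr10:76253586-76253835): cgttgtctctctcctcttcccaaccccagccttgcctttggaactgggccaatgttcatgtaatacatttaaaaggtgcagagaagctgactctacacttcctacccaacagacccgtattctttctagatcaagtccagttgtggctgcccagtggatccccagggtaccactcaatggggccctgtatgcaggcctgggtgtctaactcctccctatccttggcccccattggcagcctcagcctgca
The *Nos1* start site in this table lies inside the gene. The 5-letter core was found on either strand in *Vip*, *Nos1* and *Elavl4* and in 17.8% of 32851 promoters of the same length, and TATAAA (or TTTATA) was found among the 6 members in *Vip* alone, 3 times, and in 12.4% of promoters. The letters ACAAT (or ATTGT), the core that SOX factors bind, were in *Chrna3*, *Elavl4* and *Vip* and in 27.7% of promoters. GGGCGG (or CCGCCC) was in *Chrna3* and in 32.7% of promoters, and CAGCTG was in *Elavl4* and in 13% of promoters. A member was listed if any of its promoters matched, and *Elavl4* had several, whereas the shares are over single promoters. These motifs were chosen after the values of the members had been seen, and a match describes the letters only.

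Total counts ranged from 18951121 to 47623288 per library (median 34333250), and p values measure the spread between mice. *Dnase1l3* averaged 2.70 CPM (counts scaled to the library total and by TMM factors over the 32 libraries) in WT and 3.24 in KO colon at D0, 8.14 and 3.85 at D19, 6.08 and 5.54 at D80, and 6.64 and 5.37 in tumors. The exons that the KO allele lacks were not given in the sources used here, so these counts do not check the genotype labels. The paper reports much lower *Dnase1l3* expression along the whole intestine of this KO strain. It also reports that serum of KO mice was defective in digesting DNA and chromatin. The KO mean here was above WT at D0 and not much lower at D80 or in tumors, and the reason was not tested. At D19 all KO libraries lay below all WT libraries, and the difference was not called. KO mouse 811 at D19, WT mouse 581 at D80 and the tumor of KO mouse 544 stood apart, with 10.6%, 15.1% and 8.02% of counts on mitochondrial mRNAs. The other libraries of those groups had 5.09% to 7.04%, 5.43% to 5.83% and 3.33% to 3.35%. The untreated D0 libraries had 7.27% to 11.7%, and treated colon other than mice 811 and 581 had 4.49% to 7.04%. This share therefore differed between the untreated baseline and most treated colon, and its part in the changes from D0 was not tested. At D0, WT mouse 918 lay below the mean of the other libraries of its group for all 8 members, by a median of 1.15 on the log2 scale. KO mouse 915 also lay below for all 8 (median -0.51), and WT mice 851 and 927 and KO mouse 853 lay above for all 8.

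*Ret* and *Nos1* were low and *Uchl1* was high in all 3 libraries that stood apart. *Ret*, with 6763 exon bases, lay at -1.61, -2.50 and -1.60 (log2 CPM, prior count 1) relative to the other libraries of the group in KO mouse 811, WT mouse 581 and the tumor of KO mouse 544. *Nos1*, the longest at 11151 bases, lay at -2.39, -3.0 and -0.56, and *Sox10*, with 3051 bases, at -2.13, -1.80 and 0.28. *Uchl1*, one of the shortest at 1632 bases, lay at 1.29, 0.88 and 1.22. Length did not order all members, since *Chrna3*, with 5265 bases, lay above the rest of its group in all 3 libraries, at 1.15, 0.14 and 0.21. *Elavl4*, with 5387 bases, lay below in all 3, at -0.38, -0.67 and -0.22, and *Vip*, with 3402 bases, lay at 0.51, 0.37 and -0.47. *S100b*, the shortest at 1484 bases, lay at -0.03, 0.62 and -0.08.

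**Figure D1:**
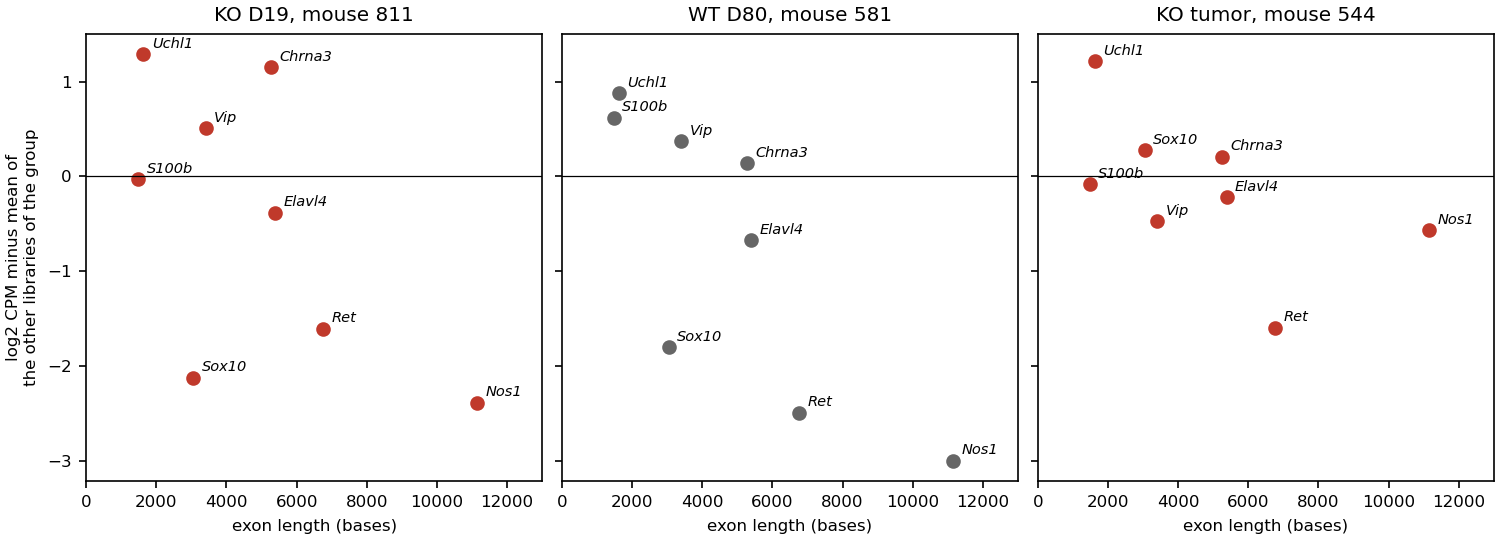
Level of each member in the 3 libraries that stood apart, as log2 CPM minus the mean of the other libraries of the group (vertical axis), against the exon length of the gene in bases (horizontal axis). *Nos1* and *Ret*, the longest, lie below 0 in each panel (between -3.0 and -0.56), as does *Elavl4* (between -0.67 and -0.22). *Uchl1* (between 0.88 and 1.29) and the long *Chrna3* (between 0.14 and 1.15) lie above 0.

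The members were expressed in all colon groups, and their order of level changed in tumors. Per kilobase of exon, *Uchl1* was highest in untreated WT colon at 13.0 CPM per kb, followed by *Vip* at 4.69, *S100b* at 2.79, *Nos1* at 1.80, *Ret* at 1.76, *Sox10* at 1.23, *Chrna3* at 1.14 and *Elavl4* at 0.592. In WT tumors *Ret* was highest at 4.55 CPM per kb, *Uchl1* reached 2.81, *Vip* 0.377, and the other 5 lay between 0.0174 and 0.0827. *Nos1* and *Ret* at D0, and *Sox10* and *Chrna3*, differed by less than the spread between mice. In KO tumors *Uchl1* (4.22 CPM per kb) and *Ret* (3.76) were again the highest, with overlapping ranges.

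**Figure D2:**
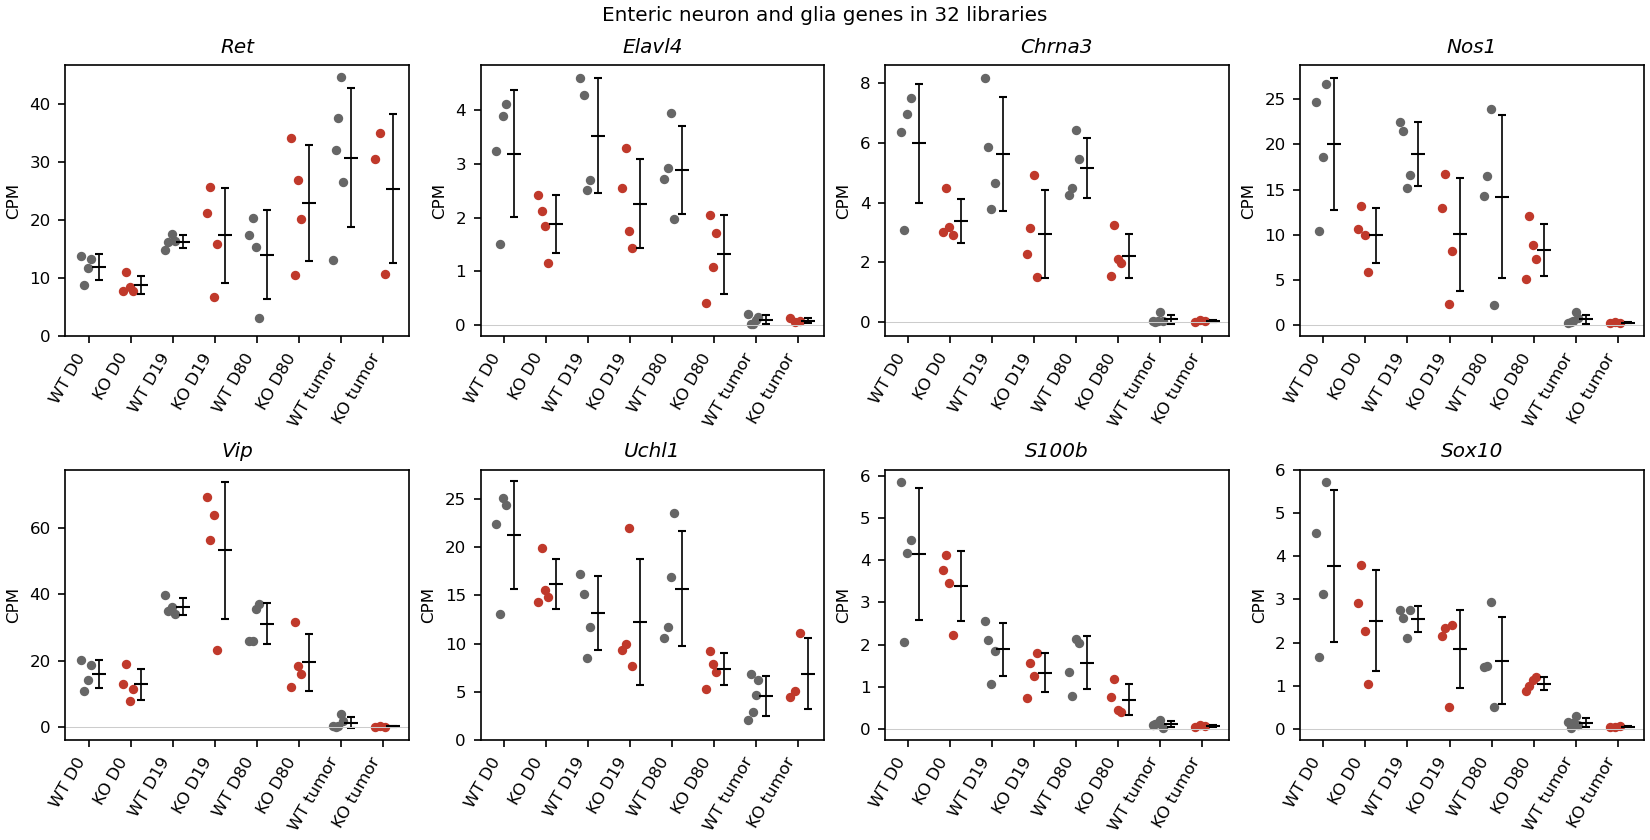
Level of each member (CPM, vertical axis, 1 panel per gene) in each of the 8 groups (horizontal axis). WT libraries are gray points and KO libraries red points, and bars give each group's mean and SD. *Elavl4*, *Chrna3*, *Nos1*, *Vip*, *S100b* and *Sox10* lie at or below 3.89 CPM in all 8 tumors, whereas *Ret* lies between 10.8 and 44.6 CPM there.

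Tumors were compared with D80 colon of the same genotype to ask how tumors differ from treated whole colon. Only 3 mice of each genotype gave both samples, and the main fit did not pair them. In WT, 7 of the 8 members fell, and in KO, 6 fell, and none rose. Calls required more than a 2-fold change and a Benjamini-Hochberg adjusted p under 0.05 in edgeR's quasi-likelihood test, and by this rule 13.5% of 19007 genes fell in WT tumors and 16.4% of 19457 in KO tumors (21.5% and 26.7% in either direction). Over the members the median change was -4.16 (log2) in WT and -4.0 in KO, whereas over all genes it was -0.06 and 0.01. Each member that fell had no tumor library as high as any D80 library of the same genotype. The share of all genes without such overlap was not counted.

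*Vip* encodes the peptide of inhibitory motor neurons and secretomotor neurons. In D80 colon it was at 25.9, 26, 35.6 and 37.2 CPM in WT and at 12.1, 16.0, 18.2 and 31.7 CPM in KO. In tumors it was at 0.0599, 0.279, 0.306, 1.88 and 3.89 CPM in WT and at 0.0818, 0.107 and 0.293 CPM in KO. The WT tumors of mice 579 and 555 were the highest, and the ranges of WT and KO tumors overlapped. *Vip* fell by 4.73 on the log2 scale in WT (SE 0.91, edgeR adjusted p = 0.00406) and fell by 6.89 in KO (SE 0.54, edgeR adjusted p = 0.000208). The KO values rest on 17 counts over 3 tumors.

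*Nos1*, the neuronal nitric oxide synthase, was at 2.20, 14.3, 16.5 and 23.9 CPM in WT and at 5.16, 7.37, 8.84 and 12.0 CPM in KO colon at D80. Tumors held 0.254, 0.329, 0.417, 0.811 and 1.41 CPM in WT and 0.214, 0.273 and 0.400 CPM in KO. The lowest WT colon value, 2.20, is that of mouse 581, which stood apart, and it was still above all tumors. *Nos1* fell by 4.55 on the log2 scale in WT (SE 0.69, edgeR adjusted p = 0.00127) and fell by 4.82 in KO (SE 0.39, edgeR adjusted p = 0.000223). Without the libraries that stood apart the *Nos1* values were -4.91 and -4.67.

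*Chrna3*, a subunit of the nicotinic receptor that carries fast transmission between enteric neurons, was nearly undetected in tumors. WT colon at D80 held 4.24, 4.48, 5.46 and 6.42 CPM and KO colon 1.54, 1.96, 2.12 and 3.26 CPM. The 5 WT tumors had 0, 1, 1, 2 and 14 counts and the 3 KO tumors 0, 1 and 3 counts, against 56 or more in each D80 library. Of the 18 counts of WT tumors, 14 came from mouse 555. *Chrna3* fell by 5.85 on the log2 scale in WT (SE 0.73, edgeR adjusted p = 0.000535) and fell by 5.74 in KO (SE 0.62, edgeR adjusted p = 0.000522).

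*Elavl4*, which encodes the neuronal RNA-binding protein HuD, had 1 to 8 counts in WT and 2 to 5 in KO tumors. It was at 1.97 to 3.95 CPM in WT and 0.412 to 2.06 CPM in KO colon at D80. *Elavl4* fell by 4.86 on the log2 scale in WT (SE 0.47, edgeR adjusted p = 0.000254) and fell by 3.89 in KO (SE 0.69, edgeR adjusted p = 0.00337). The lowest KO colon library, that of mouse 527, held 15 counts.

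The glial members fell as well. *S100b* was at 0.777, 1.36, 2.03 and 2.12 CPM in WT and at 0.399, 0.443, 0.769 and 1.18 CPM in KO colon at D80, and tumors had 1 to 9 counts in WT and 2 to 4 in KO. *S100b* fell by 3.77 on the log2 scale in WT (SE 0.49, edgeR adjusted p = 0.000654) and fell by 3.15 in KO (SE 0.57, edgeR adjusted p = 0.0036). *Sox10* was at 0.507, 1.44, 1.46 and 2.93 CPM in WT and at 0.878, 1.01, 1.14 and 1.20 CPM in KO colon, and tumors had 1 to 12 counts in WT and 2 in each KO tumor. *Sox10* fell by 3.48 on the log2 scale in WT (SE 0.56, edgeR adjusted p = 0.00173) and fell by 4.11 in KO (SE 0.35, edgeR adjusted p = 0.000267). At counts this low, differences among tumors in these genes were not detectable.

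*Uchl1* fell in WT tumors and was not called in KO tumors. WT colon held 10.5, 11.7, 16.9 and 23.6 CPM and WT tumors 2.13, 2.98, 4.70, 6.26 and 6.89 CPM, a log2 fold change of -1.91 (SE 0.40, edgeR adjusted p = 0.00588) with no overlap. KO colon held 5.33, 7.09, 7.95 and 9.29 CPM and KO tumors 4.44, 5.09 and 11.1 CPM, a log2 fold change of -0.10 (SE 0.38, edgeR adjusted p = 0.849). The value of 11.1 is that of mouse 544, which stood apart, and without it the KO log2 fold change was -0.68 (edgeR adjusted p = 0.0426, range over all alternatives 0.0426 to 0.908), still under 2-fold. The difference between genotypes, tested as an interaction, was 1.82 (SE 0.59, edgeR adjusted p = 0.419), and 0.87 without the libraries that stood apart.

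*Ret* was the 1 member called in neither genotype. WT colon at D80 held 3.10, 15.4, 17.5 and 20.3 CPM and WT tumors 13.1, 26.5, 32, 37.6 and 44.6 CPM. All but 1 of the WT tumors lay above all WT colon libraries, and the tumor of mouse 534, at 13.1 CPM, lay below 3 of the 4. The *Ret* value was 1.02 on the log2 scale (SE 0.49, edgeR adjusted p = 0.144), which missed the threshold. It was 0.70 without mouse 581 (edgeR adjusted p = 0.113). With the 3 mice that gave both samples as a block it was 1.02 (edgeR adjusted p = 0.00759) and was called, and with all 32 libraries in a single fit 1.13 (edgeR adjusted p = 0.0287), over a range of 0.00759 to 0.166. KO colon held 10.5, 20.1, 26.9 and 34.1 CPM and KO tumors 10.8, 30.6 and 35.0 CPM, a log2 fold change of 0.10 (SE 0.44, edgeR adjusted p = 0.863), and 0.48 without the tumor of mouse 544.

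**Figure D3:**
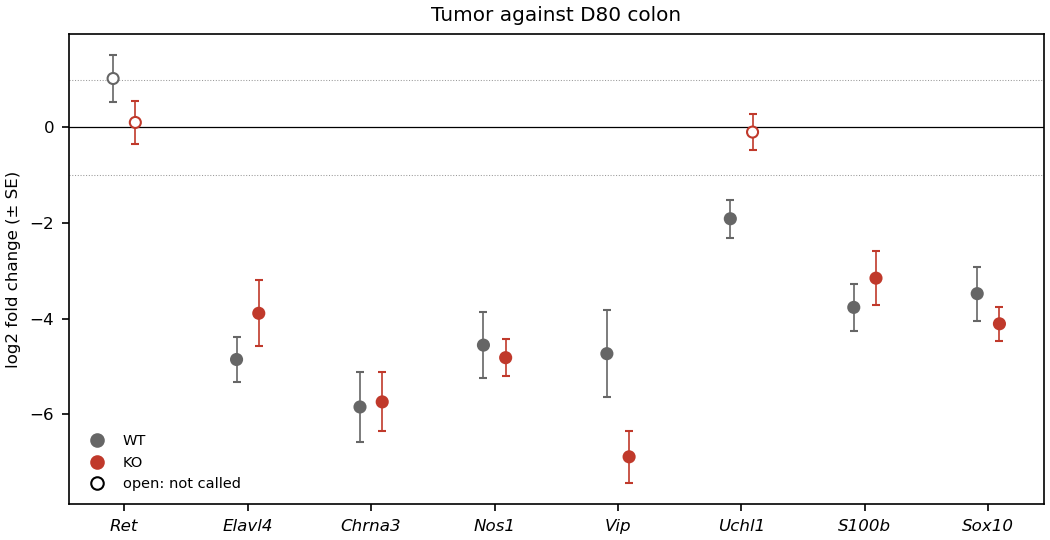
Log2 fold change of each member in tumors relative to D80 colon (vertical axis, with SE) in WT (gray) and KO (red). Filled points passed the test and open points did not. All members but *Ret* in WT, and all but *Ret* and *Uchl1* in KO, lie between -6.89 and -1.91 and are filled.

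The change was then compared between the genotypes, and no difference was called. In the interaction fit edgeR called 0 of the 8 members and 0% of 20391 genes, 1 member (*Uchl1*) had an unadjusted p under 0.05, as did 2385 genes, and 0 were called by DESeq2. *Vip* had the next smallest p, with a difference of -2.17 (SE 1.25, edgeR adjusted p = 0.49).

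Other genes of enteric neurons and glia were taken from wider lists. Of 12 tested other neuron genes, all 12 fell in WT tumors, and 11 of 13 tested fell in KO. *Prph*, which encodes the intermediate filament peripherin, fell by 5.50 on the log2 scale (SE 0.43) in KO. Of 11 transmitter and neuropeptide genes, 8 fell in each genotype, among them *Slc18a3*, the vesicular acetylcholine transporter, at -5.59 (SE 0.62) in WT. *Calcb*, a calcitonin gene-related peptide gene, rose in KO tumors by 3.95 (SE 0.35), from a mean of 0.878 to 13.9 CPM. None of these genes was called as rising in WT tumors, and none of 13 tested was called in the interaction between genotypes. Of the neuronal receptor genes, 6 of 8 fell in WT and 5 of 7 in KO, and *Chrnb4*, the subunit that pairs with *Chrna3*, fell by 3.31 (SE 0.27) in WT.

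Several genes of the pathway that signals through RET fell in tumors. Of 9 GDNF and endothelin signaling genes, 3 fell in WT (*Gdnf*, *Gfra1* and *Gfra3*) and 4 in KO (the same 3 and *Artn*), and none rose. *Gfra1*, the co-receptor for GDNF, fell by 2.63 (log2, SE 0.41) in WT tumors and fell by 2.68 (SE 0.44) in KO tumors. Of the other glia genes, 4 of 9 fell in WT and 6 of 10 in KO, and 2 rose in each. *Gfap*, a filament of glia, fell by 3.69 (SE 0.67) in WT and fell by 3.77 (SE 0.52) in KO.

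Smooth muscle genes were lower in the same tumors. All 12 of 12 fell in WT and in KO, at medians of -3.56 and -3.97 on the log2 scale, and their summed level was 204 to 915 CPM in tumors and 2697 to 5403 CPM in D80 colon. The tumor of WT mouse 555, which lay above the mean of the other WT tumors for all 8 members, had the highest summed smooth muscle level at 915 CPM. The summed other neuron genes ranged from 8.57 to 16.0 CPM in tumors and from 29.8 to 99.6 CPM at D80. The summed other glia genes overlapped in WT, at 136 to 280 CPM in tumors and 84.9 to 361 CPM at D80. The value of 84.9 is that of mouse 581, which stood apart. In KO the glia sums were at 110 to 207 and 250 to 341 CPM. The summed transmitter and neuropeptide genes were at 11.7 to 60.3 and 47.1 to 72.9 CPM in WT, and at 23.5 to 30.1 and 35.5 to 47.1 CPM in KO. Genes on which nitric oxide and VIP act in muscle fell too (4 of 5 in WT and 5 of 5 in KO), among them *Vipr2*, a VIP receptor, at -3.01 (SE 0.31) in WT. Of the 9 epithelial genes, 1 fell in WT and 2 in KO, and their summed level was 5900 to 13049 CPM in tumors and 8098 to 12052 CPM at D80. Of 9 enteroendocrine genes, 8 fell in each genotype. Of 3 genes of the interstitial cells of Cajal, which pace the muscle, *Kit* and *Etv1* fell in each genotype, as did 4 of 4 tested adipocyte genes, and 3 of 5 posterior Hox genes rose. The part of muscle and of these other cells in the members' values was not tested.

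**Figure D4:**
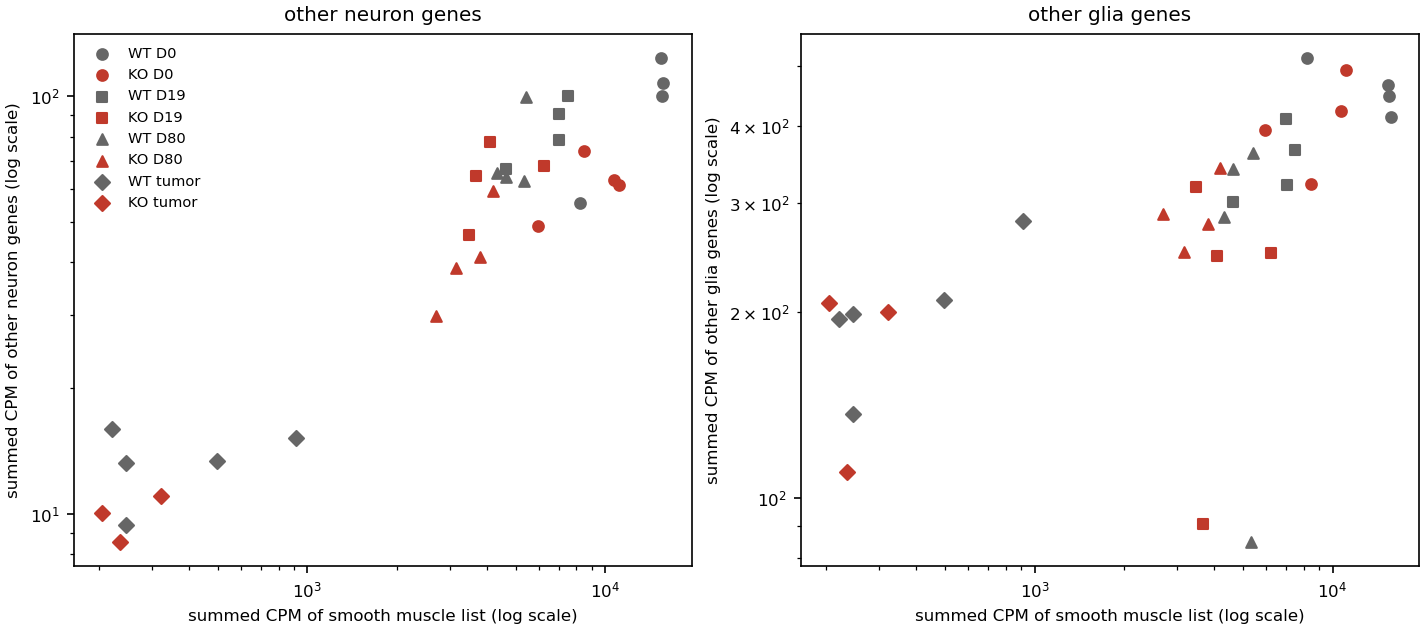
Summed level of 14 other neuron genes (left) and 11 other glia genes (right) in CPM (vertical axes, log scale) against the summed level of 12 smooth muscle genes in CPM (horizontal axes, log scale), 1 point per library. The tumors (diamonds) lie at 204 to 915 CPM of smooth muscle genes and at 8.57 to 16.0 CPM of other neuron genes, below all colon libraries on both axes of the left panel. In the right panel they lie at 110 to 280 CPM of other glia genes, which overlaps the colon libraries (84.9 to 515 CPM).

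The early stage of the model was compared with untreated colon in each genotype. After 1 cycle, *Vip* rose and *S100b* fell in both WT and KO colon, and the other 6 members were not called. edgeR called 13.4% of 18570 genes in WT (9.33% rose and 4.04% fell) and 11.5% of 19191 in KO (8.95% rose and 2.52% fell), against 2 of 8 members in each.

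*Vip* was at 10.8, 14.1, 18.6 and 20.3 CPM in untreated WT colon and at 33.9, 34.9, 36.3 and 39.9 CPM at D19. The groups did not overlap, and *Vip* rose by 1.14 on the log2 scale (SE 0.17, edgeR adjusted p = 0.00067). In KO colon *Vip* was at 7.89, 11.5, 12.9 and 19.1 CPM untreated and at 23.3, 56.3, 64.1 and 69.5 CPM at D19, again without overlap. In KO it rose by 2.03 (SE 0.38, edgeR adjusted p = 0.00545), and 1.92 without mouse 811. The KO mean of 53.3 ± 20.7 CPM (SD, n = 4) was above the WT mean of 36.3 ± 2.62 (SD, n = 4), but KO mouse 813 lay below all 4 WT mice. The difference between genotypes in the change of *Vip* was 0.89 (SE 0.43, edgeR adjusted p = 0.629). The WT call was lost with all 32 libraries in a single fit (1.16, edgeR adjusted p = 0.162, range over alternatives 9.69e-09 to 0.162) and, by a fold change just under 2, without WT mouse 918 of D0 (0.99).

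*S100b* was at 2.07, 4.16, 4.47 and 5.85 CPM in untreated WT colon and at 1.06, 1.84, 2.10 and 2.56 CPM at D19, where 1 D0 mouse, 918, overlapped. *S100b* fell by 1.19 on the log2 scale (SE 0.34, edgeR adjusted p = 0.0165). In KO colon it was at 2.23, 3.45, 3.77 and 4.12 CPM untreated and at 0.729, 1.25, 1.56 and 1.81 CPM at D19, without overlap, with a log2 fold change of -1.35 (SE 0.34, edgeR adjusted p = 0.0249). The WT call was lost without WT mouse 851 (-0.97) or mouse 805 (-0.98), where the change was under 2-fold. The KO call was lost without mouse 852, 853, 872, 803 or 804, where the log2 fold change was -1.43 to -1.15. *Sox10*, the other glial member, was at -0.62 (SE 0.32, edgeR adjusted p = 0.134) in WT and -0.44 (SE 0.51, edgeR adjusted p = 0.723) in KO, where it was -0.14 without mouse 811.

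*Ret* was at 8.73, 11.7, 13.3 and 13.9 CPM in untreated WT colon and at 14.9, 16.1, 16.5 and 17.6 CPM at D19. The groups did not overlap and the log2 fold change of 0.41 (SE 0.14, edgeR adjusted p = 0.0356) was under 2-fold. In KO it was at 7.77, 7.81, 8.47 and 11 CPM untreated and at 6.72, 15.8, 21.3 and 25.7 CPM at D19, where 6.72 is the value of mouse 811, which stood apart. The *Ret* value in KO was 0.96 (SE 0.36, edgeR adjusted p = 0.124), and without mouse 811 it was 1.22 (edgeR adjusted p = 0.00113, range over alternatives 0.00113 to 0.13) and was called. *Uchl1* was at -0.74 (SE 0.25, edgeR adjusted p = 0.0357) in WT, under 2-fold, and at -0.42 (SE 0.33, edgeR adjusted p = 0.542) in KO. Without mouse 811 the *Uchl1* value in KO was -0.87 (edgeR adjusted p = 0.00318, range over alternatives 0.00318 to 0.59), past the p threshold and under 2-fold, as in WT. *Elavl4*, *Chrna3* and *Nos1* had log2 fold changes between -0.22 and 0.23 in both genotypes, with SEs of 0.26 to 0.50. Without mouse 811 the KO values were 0.33 for *Elavl4*, -0.59 for *Chrna3* and 0.32 for *Nos1*.

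In the wider lists, the transmitter and neuropeptide genes moved in both directions at D19. *Npy* and *Dbh* rose in both genotypes. *Dbh*, the enzyme that makes noradrenaline, was up by 1.52 (log2, SE 0.29) in WT colon and by 1.73 (SE 0.39) in KO colon, and *Npy*, a neuropeptide, by 2.37 (SE 0.54) in WT colon. *Grp* and *Calcb* fell in both, *Cartpt* fell in WT, and *Tac1*, the substance P gene, and *Penk*, the enkephalin gene, rose in KO. Of the GDNF and endothelin genes, *Ednrb*, the endothelin receptor of crest cells, rose in both (1.43 with SE 0.28 in WT, 2.23 with SE 0.36 in KO), *Artn* rose in KO, and *Edn3* fell in WT. Of the other glia genes 1 of 9 fell in WT (*Gfap*, -1.39, SE 0.32) and 0 of 9 were called in KO, and of the other neuron genes 1 of 13 (*Nefm*) fell in WT and 0 of 14 were called in KO.

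Smooth muscle genes were lower at D19 as well. In WT 9 of 12 fell and in KO 6 of 12, with medians of -1.20 and -1.34, and their summed level went from 8238 to 15676 CPM at D0 to 4631 to 7480 CPM at D19 in WT, and from 5936 to 11094 to 3492 to 6228 CPM in KO. All 6 leukocyte genes rose in both genotypes. Among positional genes, *Hoxb13*, a gene of the distal hindgut, was at 7.37 to 55.1 CPM in untreated WT colon and 103 to 148 CPM in WT colon at D19. The part of muscle, leukocytes and position in the changes of the members was not tested.

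**Figure D5:**
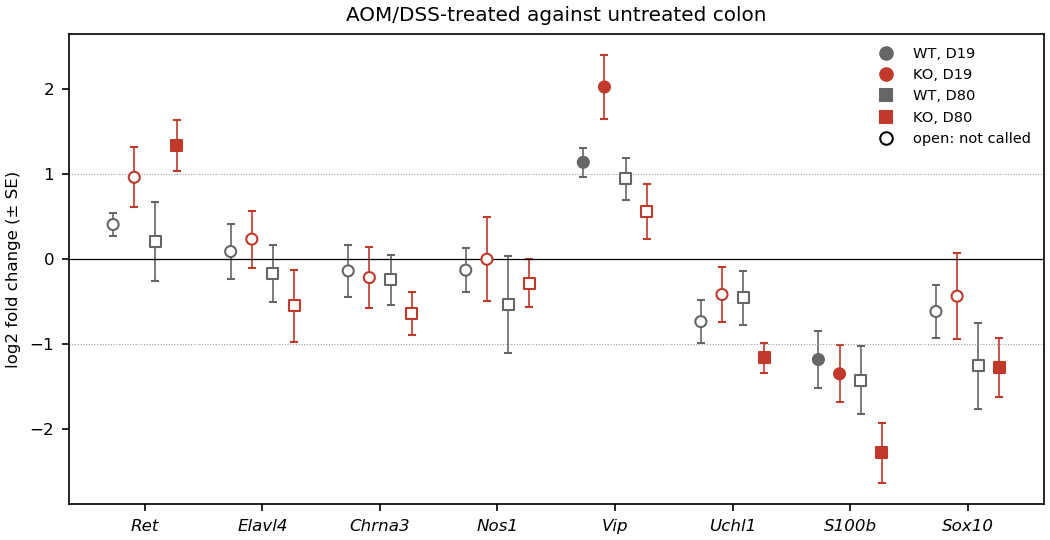
Log2 fold change of each member relative to untreated colon of the same genotype (vertical axis, with SE) at D19 (circles) and D80 (squares), in WT (gray) and KO (red). Filled points passed the test. *Vip* lies at 1.14 and 2.03 at D19, *S100b* lies below -1 in all 4 comparisons, and *Ret* is highest at 1.34 in KO colon at D80.

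After 3 cycles, 4 members changed in KO colon relative to untreated colon and none in WT. In KO, *Ret* rose and *Uchl1*, *S100b* and *Sox10* fell, against 21% of 19031 genes called (13.4% rose and 7.63% fell). In WT, edgeR called 0 of 8 members and 10.3% of 18419 genes, 3 members had an unadjusted p under 0.05, as did 4766 genes, and 1 (*S100b*) was called by DESeq2, as were 13% of genes.

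*S100b* was at 0.777, 1.36, 2.03 and 2.12 CPM in WT colon at D80, and all but 1 of the 4 untreated WT mice lay above them. The log2 fold change of -1.43 (SE 0.40, edgeR adjusted p = 0.050005) missed the threshold, and it was called in 5 alternatives, among them the omission of mouse 581 (-1.59, edgeR adjusted p = 0.00935, range over alternatives 0.0073 to 0.0539). Without WT mouse 918 of D0 it was -1.65 and was called. In KO the D80 levels of 0.399, 0.443, 0.769 and 1.18 CPM lay below all 4 untreated mice, and *S100b* fell by 2.29 on the log2 scale (SE 0.35, edgeR adjusted p = 0.000477). The difference between genotypes was -0.85 (SE 0.55, edgeR adjusted p = 0.585).

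*Sox10* was at 1.04, 2.28, 2.92 and 3.80 CPM in untreated KO colon and at 0.878, 1.01, 1.14 and 1.20 CPM at D80. The groups overlapped through mouse 915, the lowest at D0, and the log2 fold change was -1.28 (SE 0.35, edgeR adjusted p = 0.0111). In WT it was at 1.67, 3.13, 4.54 and 5.72 CPM untreated and at 0.507, 1.44, 1.46 and 2.93 CPM at D80, with a log2 fold change of -1.26 (SE 0.51, edgeR adjusted p = 0.153), and -1.02 without mouse 581 (edgeR adjusted p = 0.0678, range over alternatives 0.0446 to 0.174). The interaction for *Sox10* was -0.02 (SE 0.60, edgeR adjusted p = 0.991).

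*Uchl1* was at 14.3, 14.9, 15.5 and 19.9 CPM in untreated KO colon and at 5.33, 7.09, 7.95 and 9.29 CPM at D80, without overlap, and fell by 1.16 on the log2 scale (SE 0.18, edgeR adjusted p = 0.000429). In WT its log2 fold change was -0.46 (SE 0.32, edgeR adjusted p = 0.433), and -0.76 without mouse 581 (edgeR adjusted p = 0.0254, under 2-fold, range over alternatives 0.0254 to 0.496). The difference between genotypes was -0.70 (SE 0.38, edgeR adjusted p = 0.56), and -0.41 without mouse 581. *Ret* rose in KO, from 7.77 to 11 CPM in untreated mice to 10.5, 20.1, 26.9 and 34.1 CPM, by 1.34 (SE 0.30, edgeR adjusted p = 0.00419), with KO mouse 535 inside the untreated range. In WT the *Ret* value was 0.21 (SE 0.46, edgeR adjusted p = 0.84), or 0.52 without mouse 581. The interaction for *Ret* was 1.14 (SE 0.59, edgeR adjusted p = 0.56), and 0.82 without mouse 581.

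The neuronal members other than *Ret* and *Uchl1* were not called at D80. *Vip* was at 0.95 (log2, SE 0.25, edgeR adjusted p = 0.0372) in WT, just under 2-fold and without overlap between groups, and at 0.56 (SE 0.32, edgeR adjusted p = 0.167) in KO. *Elavl4*, *Chrna3* and *Nos1* had log2 fold changes of -0.53 to -0.17 in WT and -0.64 to -0.28 in KO. Without mouse 581 the WT values were -0.06 for *Elavl4*, -0.31 for *Chrna3* and -0.20 for *Nos1*. No interaction of this stage was called among the members, where edgeR called 0% of 19668 genes, 0 members and 1542 genes had an unadjusted p under 0.05 and 0 were called by DESeq2 (0.173% of genes). For D19 against D0 edgeR called 0 of 8 interactions and 0.0298% of 20149 genes, 0 members and 1643 genes had an unadjusted p under 0.05 and 0 were called by DESeq2 (0.839% of genes).

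Some of the other glia genes fell at D80. *Gfap* fell by 2.43 (log2, SE 0.40) in WT and fell by 1.95 (SE 0.35) in KO. In all, 2 of 8 fell in WT and 3 of 10 in KO, where *Fabp7* was among them. Of the other neuron genes, 1 of 13 fell in WT (*Hand2*) and 2 of 13 in KO (*Snap25* and *Nefm*), and of 12 transmitter genes *Npy* rose and *Gal* fell in WT, while in KO *Npy* rose and 5 fell, among them *Chat* and *Slc18a3* of cholinergic neurons. Of the GDNF and endothelin genes none was called in WT, and in KO *Artn* and *Ednrb* rose and *Gfra1* fell. Smooth muscle genes fell here too, 7 of 12 in WT and 12 of 12 in KO, with medians of -1.75 and -1.43. All 6 leukocyte genes rose in both genotypes, and 2 of 3 tested posterior Hox genes (*Hoxb13* and *Hoxd13*) rose in WT and 0 of 5 in KO. The part of muscle, leukocytes and position in these changes was not tested.

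Between D19 and D80 no member was called in either genotype. In WT, edgeR called 0 of 8 members and 0.0104% of 19202 genes, 0 members and 1002 genes had an unadjusted p under 0.05, and 0 were called by DESeq2 (0.963% of genes). In KO, edgeR called 0 of 8 and 1.65% of 19523 genes, 2 members (*Vip* and *S100b*) had an unadjusted p under 0.05, as did 2385 genes, and 1 (*Vip*) was called by DESeq2 (3.84% of genes). *Vip* was at 23.3, 56.3, 64.1 and 69.5 CPM at D19 and at 12.1, 16.0, 18.2 and 31.7 CPM at D80 in KO colon, with overlap of 1 mouse on each side. The *Vip* value was -1.48 (log2, SE 0.40, edgeR adjusted p = 0.132, range over alternatives 0.013 to 0.201) in KO and -0.19 (SE 0.20, edgeR adjusted p = 0.801) in WT. *Sox10* in KO was at -0.83 (SE 0.41, edgeR adjusted p = 0.436), and without mouse 811 it was called at -1.12.

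KO was compared with WT within each stage to ask whether the loss of *Dnase1l3* changes the enteric nervous system of the colon or tumor. No member was called at any stage. At D0, edgeR called 0 of 8 members and 0% of 18175 genes, 4 members and 1750 genes had an unadjusted p under 0.05, and 0 were called by DESeq2 (0.215% of genes). At D19 it called 0 of 8 and 0% of 19545 genes, 0 members and 2213 genes had an unadjusted p under 0.05, and 0 were called by DESeq2 (1.64% of genes). At D80 it called 0 of 8 and 0% of 18899 genes, 4 members and 1049 genes had an unadjusted p under 0.05, and 1 (*Chrna3*) was called by DESeq2 (0.201% of genes).

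At D0 all 8 members had a lower fitted level in KO, at a median of -0.51 on the log2 scale (0.01 over all genes). *Nos1* was at 10.4, 18.6, 24.6 and 26.6 CPM in WT and at 5.90, 10.02, 10.6 and 13.1 CPM in KO, and the groups overlapped only through WT mouse 918. The *Nos1* value was -1.01 (log2, SE 0.29, edgeR adjusted p = 0.467, range over alternatives 0.0418 to 1). It passed the threshold with no filter on low counts. *Chrna3* was at 3.08, 6.38, 6.99 and 7.50 CPM in WT and at 2.90, 3.0, 3.18 and 4.48 CPM in KO, a log2 fold change of -0.81 (SE 0.27, edgeR adjusted p = 0.468). The other 6 lay between -0.75 and -0.28.

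The wider lists did not all have one sign at D0. All 13 tested other neuron genes were lower in KO (median -0.68), as were all 11 transmitter genes (median -0.63) and all 12 smooth muscle genes (median -0.59), and edgeR called none of these. By contrast 8 of 9 enteroendocrine genes (median 0.31) and 2 of 3 posterior Hox genes were above 0 in KO, and 2 of 9 other glia genes were. *Myh11*, the smooth muscle myosin heavy chain, was at -0.72 (SE 0.26, edgeR adjusted p = 0.469). Summed smooth muscle genes were at 8238, 15322, 15502 and 15676 CPM in WT and at 5936, 8471, 10683 and 11094 CPM in KO. *Hoxb13* was at 7.37, 13.1, 22.9 and 55.1 CPM in WT and at 4.0, 127, 139 and 154 CPM in KO, so that 3 KO mice stood above all WT mice. The part of muscle and of the position of the sample was not tested.

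At D19 the members lay between -0.92 (*Nos1*, SE 0.47) and 0.58 (*Vip*, SE 0.31), and 6 of 8 were below 0. Without mouse 811 the limits were -1.31 (*Chrna3*, edgeR adjusted p = 0.195, range over alternatives 0.195 to 0.981) and 0.43 (*Vip*), *Nos1* was at -0.60, and *Uchl1* moved from -0.06 to -0.56. In that fit *Chrna3* and *Nos1*, below 0, and *Ret*, above 0 at 0.35, had an unadjusted p under 0.05. How many of all genes did so in that fit was not counted. At D19, 13 of 14 other neuron genes (median -0.43), all 12 smooth muscle genes (median -0.70) and all 5 posterior Hox genes (median -0.81) were below 0, and all 6 leukocyte genes were above 0 (median 0.97). The part of muscle, leukocytes and position was not tested.

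At D80 the median was -0.96, and 7 of 8 were below 0. *Chrna3* was at 4.24, 4.48, 5.46 and 6.42 CPM in WT and at 1.54, 1.96, 2.12 and 3.26 CPM in KO, without overlap, at a log2 fold change of -1.25 (SE 0.28, edgeR adjusted p = 0.681, range over alternatives 0.023 to 0.685). *Uchl1*, the other member whose groups did not overlap, was at -1.14 (SE 0.33, edgeR adjusted p = 0.681), and at -0.82 without mouse 581. The share of all genes whose groups did not overlap was not counted. *Nos1* was at -0.77 (SE 0.56), and at -1.12 without mouse 581 (edgeR adjusted p = 0.431, range over alternatives 0.29 to 0.69), and *Ret* was at 0.69 (SE 0.52), or 0.36 without it. Of the wider lists at D80, all 14 other neuron genes (median -0.87), 11 of 12 transmitter genes and all 12 smooth muscle genes (median -0.38) were below 0, as were all 9 enteroendocrine genes (median -0.36), all 5 posterior Hox genes (median -0.83) and all 4 tested adipocyte genes (median -1.47), and 5 of 6 leukocyte genes were above 0 (median 0.67). The part of these other cells was not tested. *Slc5a7*, the choline transporter of cholinergic neurons, was at -1.52 (SE 0.34, edgeR adjusted p = 0.681).

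Tumors were compared at an unadjusted p under 0.01 with more than a 2-fold difference, and 4 members had enough counts to be tested. None was called, against 0.306% of 18961 genes, and 1 (*Vip*) had an unadjusted p under 0.05, as did 1254 genes. *Vip* was at -2.91 (SE 1.24, edgeR adjusted p = 0.699) in KO relative to WT tumors, which rests on the WT tumors of mice 555 and 579. DESeq2 called it (0.965% of genes), as did the fit of all 32 libraries, and with the label prefix of the mice as a block the value was 0.17. Without WT mouse 555 it was -1.90. *Uchl1* was at 0.67 (SE 0.45, edgeR adjusted p = 0.71), *Nos1* at -1.07 (SE 0.59, edgeR adjusted p = 0.703) and *Ret* at -0.26 (SE 0.41, edgeR adjusted p = 0.838). Without the tumor of mouse 544, *Uchl1* was at 0.04 and *Ret* at 0.07. *Elavl4*, *Chrna3*, *S100b* and *Sox10* were not tested, and their differences were not detectable at this depth.

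The pattern of the members over the 32 libraries was compared after each gene was centered on its own mean in log2 CPM. *Nos1* and *Sox10*, a neuronal and a glial gene, were the closest pair, with a mean absolute difference of 0.49, and *Ret* and *Vip* were the farthest at 2.65. Among 17858 genes, those closest to *Chrna3* were *Prph* (0.33) and *Pcsk2* (0.36), to *Nos1* *Pou3f3* (0.29) and *Rab3c* (0.30), to *Elavl4* *Mapk10* (0.38) and *Snap25* (0.40), and to *Vip* *Dbh* (0.42) and *Htr3a* (0.52). Those closest to *Ret* were *Itgav* (0.25) and *Septin11* (0.25), neither of them in a neuron list, and *Ret* itself deviated by a mean of 0.66 from its own mean. *Uchl1* was closest to *Csrp1* (0.28) and *Gnai1* (0.33), *S100b* to *Ppp1r12b* (0.42) and *Tpm2* (0.42), and *Sox10* to *Adcy5* (0.38) and *Fbxl16* (0.39). The genes closest to the mean of the 8 members were *Disp2* (0.21), *Fez1* (0.27), *Zcchc18* (0.28), *Pnmal1* (0.28) and *Ric3* (0.29). These distances are a description over libraries that share groups.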

How the data were processed

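Bulk RNA-Seq of 32 samples was used. The deposited values are counts: single-end reads of 75 nt were checked by the authors with FastQC 0.11.5, aligned with STAR to mm10 and summed per gene with subread on GENCODE M25, and were not normalized. The strand setting is not given in the sources used here. Gene positions and exon lengths are from GENCODE M21 (GRCm38).

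The quasi-likelihood test of edgeR 4.0.16 (R 4.3.3, legacy option) was run for each comparison on its own groups after filterByExpr and TMM scaling, and p values were adjusted over all genes tested by Benjamini-Hochberg. Calls required more than a 2-fold difference together with an adjusted p under 0.05, or, between tumors, an unadjusted p under 0.01. These thresholds are those in the Methods of the study, which made its calls with DESeq2 rather than edgeR. Each SE is the size of the log2 value divided by the root of its F statistic. All members are named, and up to 2 genes with the smallest p of each wider list; any other gene named was chosen after its values were seen, and some genes of these lists are not reported here. The members and lists were chosen with earlier results of these data known.

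Tumor and D80 colon share 3 mice in each genotype (correlation of deviations 0.0439 to 0.226), which the labels give by mouse number. The settings varied were the tool (DESeq2 1.42.0), the scaling (RLE), the filter (none, or at least 10 counts per library), a joint fit of all libraries, the fit without its legacy option, the label prefix or the mouse as a block, omission of the 3 libraries that stood apart, and omission of each library in turn.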

Additional observations from a re-analysis of the deposited data

Results flagged for a closer look

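In 3 cases a value lay farther from the rest of their group than Dixon's test allows at the 95% level, of 56 groups tested, where chance marks about 1 group in 20. In WT tumors *Chrna3* was highest in mouse 555, at 0.354 CPM. In KO colon at D19, mouse 811, a library that stood apart by its mitochondrial share, was highest for *Uchl1*, at 21.9 CPM, and lowest for *Sox10*, at 0.506 CPM.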

How the results depend on the processing

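The count of members called kept within 1.5 times of the main count in 94 of 108 settings that changed the method. With no filter it was 1 for KO against WT at D0 and 1 for D80 against D0 in WT. With DESeq2 it was 1 for KO against WT at D80, 1 between tumors, 1 for D80 against D0 in WT and 1 for D80 against D19 in KO. With all 32 libraries in a single fit it was 1 between tumors, 1 for D19 against D0 in WT and 2 for D80 against D0 in WT, where the fit without its legacy option gave 1. Without the libraries that stood apart it was 1 for D80 against D0 in WT and 1 for D80 against D19 in KO. With 10 counts in each library it was 2 for tumor against D80 in WT and 0 in KO, since 5 and 6 members were then not tested. With each library left out in turn, the count ranged from 1 to 2 (WT) and 1 to 3 (KO) for D19 against D0, from 0 to 1 for D80 against D0 in WT, and from 0 to 1 for D80 against D19 in KO. With the mouse as a replicate block, *Ret* in tumor against D80 was called in WT (1.02) and turned to -0.23 in KO, and no other call of a member changed.

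Some log2 fold changes of single members turned sign. With the label prefix as a block, KO against WT was -0.044 for *Ret* and 0.32 for *Uchl1* at D19, and 0.17 for *Vip* in tumors. Without the libraries that stood apart it was 0.074 for *Ret* in tumors, and D19 against D0 in KO was 0.32 for *Nos1*, which was 0.026 with 10 counts in each library and 0.000504 without the legacy option. With each library left out in turn, KO against WT ranged from -0.14 to 0.35 for *Ret* and from -0.56 to 0.11 for *Uchl1* at D19 and from -0.53 to 0.074 for *Ret* in tumors. D19 against D0 ranged in WT from -0.14 to 0.23 for *Elavl4*, -0.38 to 0.017 for *Chrna3* and -0.35 to 0.024 for *Nos1*, and in KO from -0.36 to 0.32 for *Nos1*. D80 against D0 in WT ranged from -0.023 to 0.52 for *Ret*, and tumor against D80 in KO from -0.16 to 0.48 for *Ret* and -0.68 to 0.17 for *Uchl1*. The cause of these changes was not tested. The depth limits *Elavl4*, *Chrna3*, *S100b* and *Sox10* in tumors, where no library had more than 14 counts.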
